A study of Mus musculus with 6 samples.

Results

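The genes described here are 45 genes of autophagy and the lysosome, taken by gene symbol from a count table of 23420 genes, and all 45 symbols were found. They were measured by RNA sequencing in the lens transition zone of mouse embryos at E14.5, where epithelial cells stop dividing and start to elongate into fibre cells. The 3 control libraries carried the Le-Cre transgene alone. The 3 libraries labelled mutant carried Le-Cre with a null genotype for one target (Etv4-/-) and floxed alleles of the others (Etv5 fl/fl and Etv1 fl/fl), genes that encode ETS transcription factors of the Pea3 family, effectors of fibroblast growth factor signals. Both groups carry Le-Cre, which is driven by Pax6 regulatory sequence in surface ectoderm, the source of the lens, and both are of mixed strain background. The comparison asks which transcripts of the transition zone differ when these factors are depleted. Whether the libraries stem from different embryos is not stated in the labels, and p-values therefore reflect only how far these libraries vary, which may be technical. In tissue RNA of this kind, fewer cells of a type and less RNA per cell cannot be told apart.

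Autophagy delivers cytoplasm to the lysosome for breakdown. The ULK kinase complex starts the process, the class III PI3 kinase complex marks the forming membrane with PI3P, a pair of ubiquitin-like conjugation systems attach proteins of the ATG8 family (LC3 and GABARAP) to it, and cargo receptors and adaptors link the membrane to its load and its transport. The closed autophagosome then fuses with lysosomes, whose proton pump, the V-ATPase, acidifies a lumen filled with proteases and glycosidases. TFEB and TFE3, members of the MiT family of transcription factors, are known activators of many of these genes through an E-box with the core CACGTG, and the kinase complex mTORC1 holds them in the cytoplasm. The lens is known for fibre cells that later clear their nuclei, mitochondria and other organelles.

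The sequence through which TFEB and TFE3 act was looked up in the RefSeq promoter table (build GRCm38.p6, another build than the authors'), which covers 250 bases before to 50 bases after each annotated start and matched 35 of the 45 genes with 41 windows. CACGTG, searched on both strands, was present in 11 of the 41 windows (26.8%), against 7.15% of all 32851 windows in the table and 10.1% of the windows of tested genes. Its longer form TCACGTGA, which contains CACGTG, was present in 5 windows (12.2%), against 0.974% of all windows and 1.88% of those of tested genes. The stretches below come from the upstream part of 5 of these promoters and are shown because they carry the E-box, in capitals.
Ctsd, chr7:142387889-142387956, minus strand: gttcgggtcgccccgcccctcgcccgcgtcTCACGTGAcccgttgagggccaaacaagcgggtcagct
Mcoln1, chr8:3500418-3500510, plus strand: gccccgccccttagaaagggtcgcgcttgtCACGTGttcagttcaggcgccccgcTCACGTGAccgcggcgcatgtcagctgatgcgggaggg
Lamp1, chr8:13159070-13159160, plus strand: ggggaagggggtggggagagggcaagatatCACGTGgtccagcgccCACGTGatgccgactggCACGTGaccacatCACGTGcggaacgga
Ctsa, chr2:164833730-164833772, plus strand: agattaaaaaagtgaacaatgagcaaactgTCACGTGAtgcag
Atg3, chr16:45158705-45158794, plus strand: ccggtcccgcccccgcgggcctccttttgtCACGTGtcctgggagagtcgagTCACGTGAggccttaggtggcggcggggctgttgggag
A match of letters is a description and not a site of binding. The median log2 fold change, mutant over control, was -0.12 over the 11 genes with CACGTG and -0.24 over the 24 matched genes without it. For TCACGTGA the medians were -0.10 over the 5 genes with it and -0.24 over the 30 without. Lamp1 held 4 copies of CACGTG in its upstream window, Mcoln1 and Atg3 held 2 each, and Ctsd held 2, of which the farther one is not shown.

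Tfeb fell in the libraries labelled mutant, and it was the only 1 of the 45 genes that passed an adjusted p under 0.05 over all tested genes in edgeR. Control libraries 1, 2 and 3 held Tfeb at 12.9, 7.90 and 6.82 CPM, and mutant libraries 1, 2 and 3 at 1.73, 1.24 and 1.47 CPM, where CPM are counts scaled to a common library size, with TMM factors. The groups lay far apart, with the lowest control above the highest mutant library. These levels rest on 172, 130 and 123 counts against 34, 15 and 27. The log2 fold change, given throughout as mutant over control, was -2.62 ± 0.37 (SE; 95% interval -3.47 to -1.77; edgeR adjusted p = 0.0106), a level 6.14-fold lower. Over 15 alternative fits the log2 fold change lay between -2.80 and -2.19 and the call held in 12. The call was lost without control library 2 (edgeR adjusted p = 0.0524), mutant library 1 (edgeR adjusted p = 0.0560) or mutant library 3 (edgeR adjusted p = 0.0693), at log2 fold changes of -2.72, -2.75 and -2.61.

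A count of 1 called member among 45 is a share of 2.22%, equal to the 2.22% of 12257 tested genes that were called in either direction (1.14% higher and 1.08% lower). By this measure the genes as a group did not stand out from the transcriptome. All 45 passed the filter on low counts, so none was left out. Of the 45, 4 were called in the authors' deposited table (Tfeb, Ctsl, Ctsd and Psap, all lower), a share of 8.89% against 6.11% of all genes with an adjusted p there.

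The paralogue Tfe3 moved the other way without passing. It stood at 55.2, 45.3 and 60.2 CPM in control and 79.1, 63.3 and 71.3 CPM in mutant libraries. Every mutant library was above every control library, by a margin smaller than the spread within either group. Tfe3 had a log2 fold change of 0.41 ± 0.16 (SE; 95% interval 0.06 to 0.77; edgeR adjusted p = 0.239). The gene lies on the X chromosome, and mutant library 1, where it was highest, differs from the others in sex (711 counts of Xist). Without mutant library 1 the Tfe3 value was 0.33 (edgeR adjusted p = 0.506). Whether sex bears on Tfe3 was not tested. Per kilobase of exon, Tfe3 was the more abundant of the pair already in control libraries, at 14.8 ± 2.10 CPM per kb against 2.29 ± 0.802 for Tfeb, and in mutant libraries the levels were 19.7 ± 2.18 and 0.368 ± 0.0609 CPM per kb (SD, n = 3). Mitf, another gene of the MiT family that is not among the 45, had a log2 fold change of -0.99 ± 0.46 with overlapping groups (SE; edgeR adjusted p = 0.337).

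RefSeq annotates 3 Tfeb starts, and counts per gene do not tell their transcripts apart. The 100 bases before each start are shown because Tfeb is the member that passed.
Tfeb start 1, chr17:47736937-47737036, plus strand: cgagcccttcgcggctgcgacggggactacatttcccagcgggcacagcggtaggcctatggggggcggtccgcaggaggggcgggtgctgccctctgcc
Tfeb start 2, chr17:47737831-47737930, plus strand: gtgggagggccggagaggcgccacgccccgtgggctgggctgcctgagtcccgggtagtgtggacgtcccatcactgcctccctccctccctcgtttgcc
Tfeb start 3, chr17:47785644-47785743, plus strand: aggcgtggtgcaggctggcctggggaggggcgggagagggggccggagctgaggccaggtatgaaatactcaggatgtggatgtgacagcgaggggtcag
None of the 3 Tfeb windows held CACGTG. The motif GGAAGT is a core that ETS factors of the Pea3 type can bind. Searched on both strands, it was found in 1 of the 3 Tfeb windows, just after the start. It was present in 8 of the 41 windows of all members (19.5%), against 23.8% of all windows and 26.9% of those of tested genes. The median log2 fold change was 0.02 over the 8 genes with GGAAGT and -0.32 over the 27 matched genes without it. Of the 20 tested genes nearest to Tfeb in gene order, 10 on each side, 1 was called (Rftn1), and whether an inherited strain segment bears on Tfeb was not tested.

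**Figure D1:**
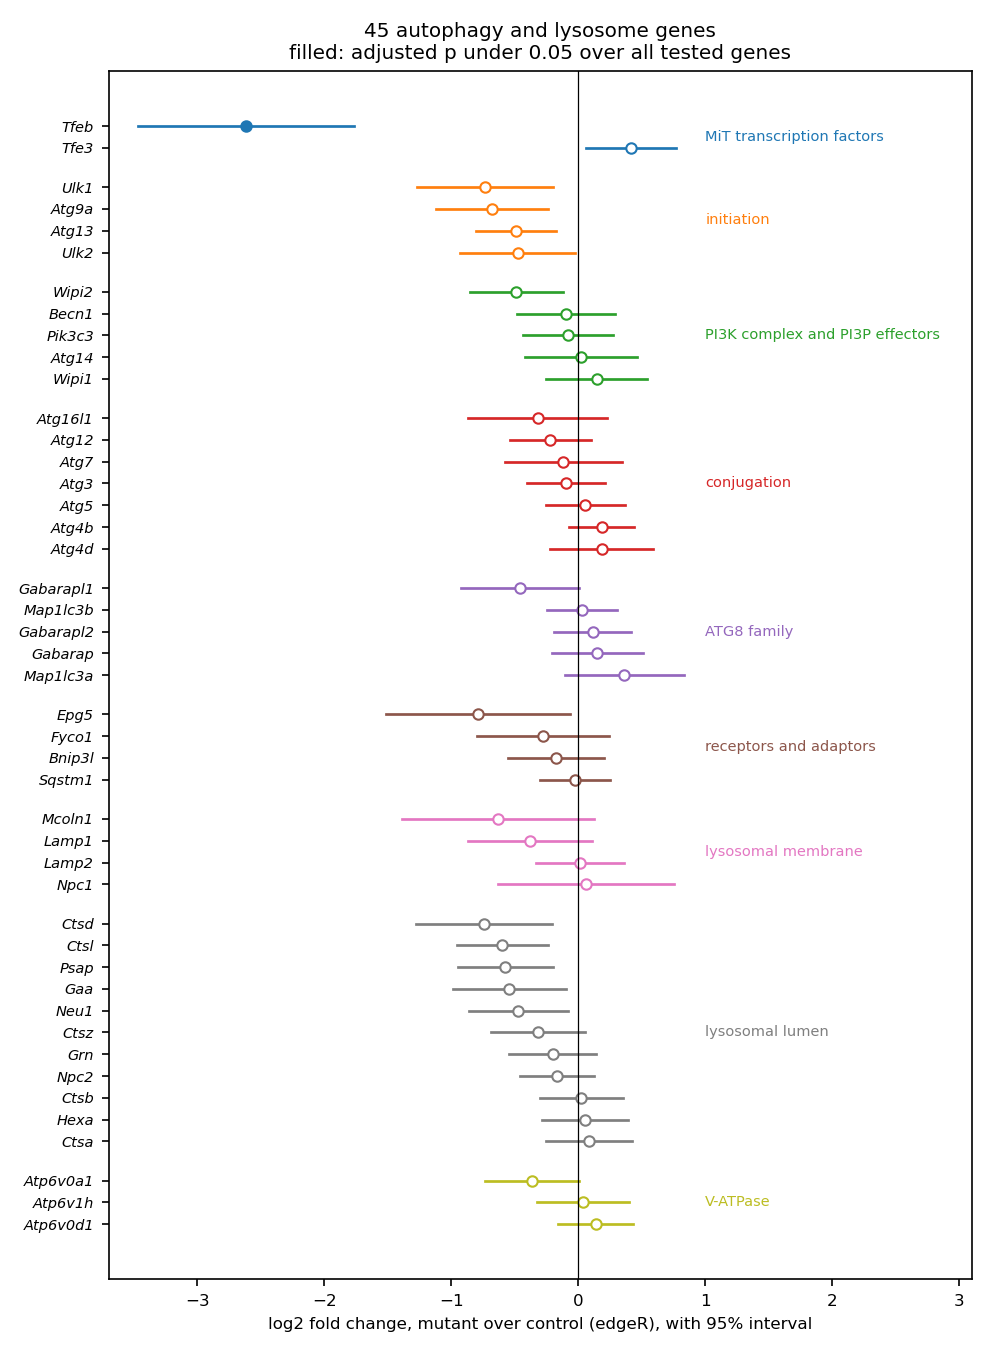
Log2 fold change of each of the 45 genes, mutant over control, with its 95% interval from the edgeR fit, grouped by role. Tfeb at -2.62 is the only filled point (adjusted p under 0.05), and the 4 initiation genes lie between -0.74 and -0.48.

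The 4 genes of autophagy initiation among the 45 were lower in every mutant library than in every control library, although none passed the adjusted threshold. Over all tested genes, 11.3% were lower without overlap. Rb1cc1 and Atg101, genes of the ULK complex that are not among the 45, had overlapping groups. Their log2 fold changes were -0.29 and 0.09 (edgeR adjusted p = 0.430 and 0.813). Ulk1, the kinase that starts autophagy, was at 21.6, 22.5 and 23.3 CPM in control and 16.0, 9.32 and 15.04 CPM in mutant libraries. The controls were tight, and mutant library 2 was the lowest of the 6. This gave Ulk1 a log2 fold change of -0.74 ± 0.24 (SE), with an edgeR adjusted p = 0.172. Atg9a, the membrane protein of the vesicles that seed the autophagosome, was at 66.1, 46.5 and 42.5 CPM against 29.9, 32.7 and 34.1 CPM. Here control library 1 stood highest, and the mutant libraries were close to each other (log2 fold change -0.68 ± 0.19 (SE); edgeR adjusted p = 0.127).

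Atg13, the scaffold of the ULK complex, was at 55.8, 62.4 and 69.8 CPM in control and 47.9, 43.7 and 42.5 CPM in mutant libraries. The gap between the groups was wider than the spread of the mutant libraries (log2 fold change -0.49 ± 0.14 (SE); edgeR adjusted p = 0.128). Ulk2, the second ULK kinase, was at 59.4, 39.6 and 43.1 CPM against 35.5, 38.0 and 28.5 CPM. Its groups were nearly touching, with control library 2 next to mutant library 2 (log2 fold change -0.48 ± 0.20 (SE); edgeR adjusted p = 0.286). As a description, the median log2 fold change of the 4 genes was -0.58, against 0.00 over all tested genes, and all 4 had an unadjusted p under 0.05, as did 8.27% of tested genes in the lower direction. Without control library 1 the Ulk2 value was -0.29. With the crystallin share of each library as a covariate, Ulk1 (log2 fold change -0.92; edgeR adjusted p = 0.0378) and Atg13 (-0.55; edgeR adjusted p = 0.0435) passed, and Atg9a passed with DESeq2 (-0.68; DESeq2 adjusted p = 0.0489). Each of these 3 genes was called in 1 of the 15 alternatives only.

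In the next step, the class III PI3 kinase complex and the proteins that read its lipid, 1 of 5 genes was lower in every mutant library. Wipi2, which binds PI3P and recruits the conjugation machinery, was at 219, 152 and 169 CPM in control and 116, 136 and 133 CPM in mutant libraries. Control library 1 again stood highest (log2 fold change -0.49 ± 0.16 (SE); edgeR adjusted p = 0.186), and without it the value was -0.32. Pik3c3, the catalytic subunit, had a log2 fold change of -0.08, Becn1 one of -0.10, Atg14, which directs the complex to autophagosomes, one of 0.02, and Wipi1 one of 0.14. None of these passed, and their groups overlapped. The 95% intervals of the 5 genes reached from -0.86 to 0.54.

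The conjugation machinery differed little between the groups. Atg4b, the protease that primes ATG8 proteins and had the lowest p of these 7 genes, was at 77.7, 77.0 and 78.9 CPM in control and 88.6, 86.3 and 90.3 CPM in mutant libraries. Its groups did not overlap and were both tight, but the difference was small (log2 fold change 0.18 ± 0.11 (SE); edgeR adjusted p = 0.468). Atg12, the ubiquitin-like protein joined to Atg5, had a control mean of 138 ± 20.1 CPM and a mutant mean of 119 ± 6.65 CPM (SD, n = 3). The E1-like enzyme gene Atg7 and the E2-like enzyme gene Atg3 had log2 fold changes of -0.12 and -0.10, Atg5 one of 0.05, Atg16l1, which positions the conjugate, one of -0.32, and the protease gene Atg4d one of 0.18. None of the 7 passed, the median was -0.10, and the 95% intervals reached from -0.87 to 0.59. A change of 1.0 in log2, a doubling or halving, lay outside every one of these intervals.

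The ATG8 family, whose lipid-bound forms coat the autophagosome, showed no called gene, and the values of all 5 members overlapped between the groups. Per kilobase of exon, Gabarap was the most abundant at 142 ± 15.8 CPM per kb in control libraries, followed by Gabarapl1 at 47.2 ± 11.6, Map1lc3a at 29.1 ± 3.95, Gabarapl2 at 26.6 ± 1.94 and Map1lc3b at 26.0 ± 1.78 (SD, n = 3). The last 3 did not differ from each other beyond their spread. This order depends on the exon lengths used, 1112 bases for Map1lc3a and 5182 bases for Map1lc3b. Without division by length, these genes stood at 32.3 and 135 CPM in control libraries. Which transcripts the libraries held was not tested. Gabarapl1 was at 105, 88.7 and 63.5 CPM in control and 56.7, 74.1 and 57.0 CPM in mutant libraries, with mutant library 2 above control library 3. Its log2 fold change of -0.46 ± 0.20 was the only negative one of the family, although that of Map1lc3b changed sign in 2 alternatives (SE; edgeR adjusted p = 0.316). Gabarap had means of 192 ± 21.4 CPM (control) and 214 ± 33.5 CPM (mutant), and Map1lc3b 135 ± 9.24 against 137 ± 8.66 CPM (SD, n = 3). Map1lc3a, at 32.3 ± 4.39 against 41.5 ± 9.92 CPM, and Gabarapl2, at 44.7 ± 3.25 against 48.3 ± 2.35 CPM (SD, n = 3), had log2 fold changes of 0.36 and 0.11. The Gabarapl1 value was -0.28 without control library 1, and the Map1lc3a value was 0.15 without mutant library 3. Related members can share reads, and how such reads were counted is not given in the sources used here.

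Among receptors and adaptors, the differences were also within the spread, apart from a low-abundance tether. Epg5, which tethers autophagosomes to lysosomes, was at 10.6, 12.9 and 16.0 CPM in control and 7.67, 10.4 and 4.85 CPM in mutant libraries. The highest mutant library lay just under the lowest control library. The Epg5 log2 fold change, -0.79 ± 0.32, missed the threshold (SE; edgeR adjusted p = 0.269). Bnip3l, a mitochondrial cargo receptor known for organelle removal in the lens, had means of 378 ± 62.2 CPM (control) and 335 ± 45.2 CPM (mutant; SD, n = 3; log2 fold change -0.17, 95% interval -0.55 to 0.20). Sqstm1, the receptor p62 for ubiquitin-tagged cargo, was almost level at 215 ± 10.3 and 211 ± 17.1 CPM (SD, n = 3). Fyco1, which links autophagosomes to kinesin motors and is a known cataract gene, had a log2 fold change of -0.28 (95% interval -0.80 to 0.24).

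**Figure D2:**
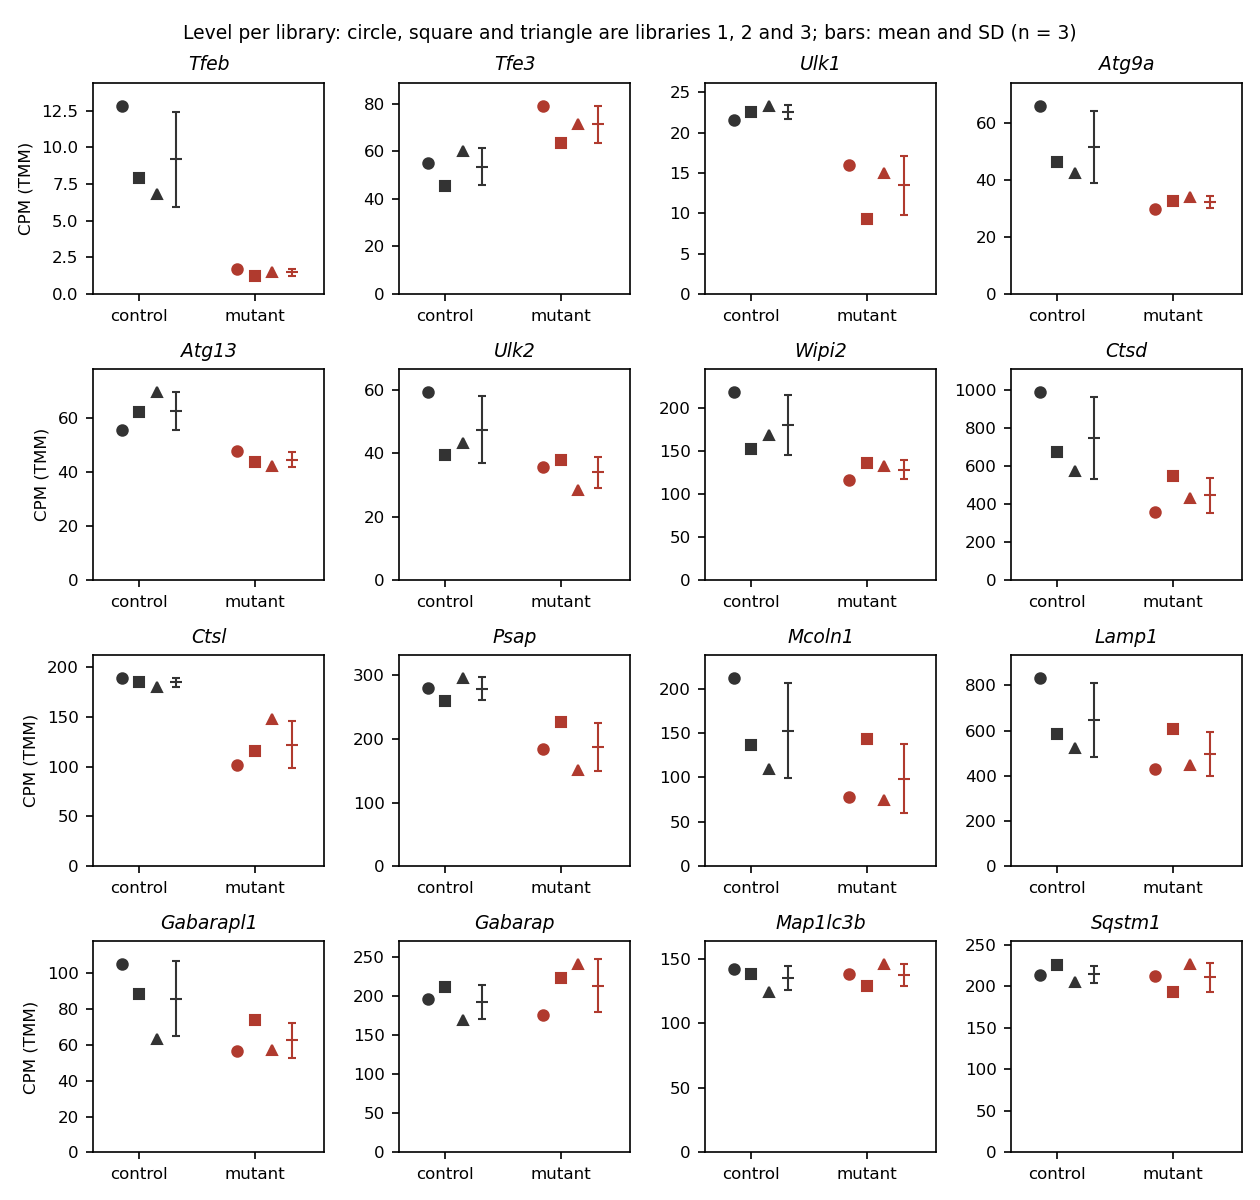
Level in CPM (linear axis from 0, after TMM scaling) of 16 genes in each library, with control in black, mutant in red, and the mean and SD of 3 libraries beside the points. Tfeb lies between 6.82 and 12.9 CPM in control and between 1.24 and 1.73 CPM in mutant libraries, while Map1lc3b and Sqstm1 overlap between the groups.

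Of the 11 genes of the lysosomal lumen, 8 had negative log2 fold changes and 6 were lower without overlap between groups, but none passed over all genes in edgeR. Over all tested genes, 50.2% had positive values and 11.3% were lower without overlap. Ctsd, the aspartic protease cathepsin D and the most abundant of the 45 genes per kilobase in control libraries, was at 992, 674 and 577 CPM in control and 360, 546 and 433 CPM in mutant libraries. Control library 1 stood far above the rest, while mutant library 2 lay just under control library 3. Ctsd had a log2 fold change of -0.74 ± 0.24 (SE), with an edgeR adjusted p = 0.167, and one of -0.49 without control library 1. Ctsl, the cysteine protease cathepsin L, was at 189, 185 and 180 CPM in control and 102, 116 and 148 CPM in mutant libraries. Its control libraries were nearly equal and all above the mutant libraries (log2 fold change -0.60 ± 0.16 (SE); edgeR adjusted p = 0.100).

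Psap, whose product is cut into the saposins that help break down sphingolipids, was at 280, 260 and 296 CPM in control and 184, 227 and 151 CPM in mutant libraries. The groups did not overlap, and mutant library 2 was nearest to the controls (log2 fold change -0.58 ± 0.16 (SE); edgeR adjusted p = 0.131). Gaa, the acid alpha-glucosidase that digests glycogen, was at 215, 163 and 165 CPM against 119, 156 and 98.4 CPM. Here too mutant library 2 lay close to the controls (log2 fold change -0.54 ± 0.19 (SE); edgeR adjusted p = 0.217). Neu1, a lysosomal sialidase, was at 31.3, 37.2 and 28.9 CPM against 25.3, 22.9 and 21.9 CPM, again without overlap (log2 fold change -0.47 ± 0.17 (SE); edgeR adjusted p = 0.219).

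Other lumen genes were close to level. Ctsb, the cysteine protease cathepsin B, and Hexa, a beta-hexosaminidase subunit, had log2 fold changes of 0.02 and 0.05, and Ctsa, the protective protein that binds Neu1, one of 0.08. The 95% interval of Ctsb reached from -0.30 to 0.35, and that of Ctsl from -0.95 to -0.24. The signs of Ctsa, Ctsb and Hexa each changed in at least 1 alternative. The protease gene Ctsz, the progranulin gene Grn and the cholesterol carrier gene Npc2 had log2 fold changes of -0.32, -0.20 and -0.17. The median of the 11 genes was -0.32. With DESeq2 and with limma voom, Ctsd, Ctsl and Psap passed as well (DESeq2 adjusted p = 0.0439, 0.0272 and 0.0416; limma adjusted p = 0.0449, 0.0277 and 0.0380). Of the 15 alternatives, 3 called Ctsd, 3 called Ctsl and 4 called Psap.

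Of the 4 genes of the lysosomal membrane, Mcoln1 and Lamp1 varied widely within each group. Mcoln1, a calcium channel of the lysosome, was at 212, 136 and 110 CPM in control and 78.2, 144 and 74.1 CPM in mutant libraries. Mutant library 2 lay above control libraries 2 and 3, which left a log2 fold change of -0.63 ± 0.33 (SE), with an edgeR adjusted p = 0.393. Leaving out control library 1 gave Mcoln1 a value of -0.32, leaving out mutant library 2 one of -1.003, and the crystallin covariate one of -0.28. Lamp1, a main glycoprotein of the membrane and next after Ctsd per kilobase in control libraries, had means of 646 ± 164 CPM (control) and 496 ± 97.5 CPM (mutant; SD, n = 3; log2 fold change -0.38 ± 0.21 (SE)). The Lamp1 value was -0.16 both without control library 1 and with the crystallin covariate. Per kilobase, Ctsd and Lamp1 stood at 351.5 ± 102 and 290.0 ± 73.7 CPM per kb in control and at 210 ± 44.1 and 223 ± 43.8 CPM per kb in mutant libraries (SD, n = 3). In each group, the difference between Ctsd and Lamp1 was within their spread. Lamp2, a relative of Lamp1, and the cholesterol exporter gene Npc1 had log2 fold changes of 0.02 and 0.06. None of the 4 passed.

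The 3 subunit genes of the V-ATPase did not pass. Atp6v0a1, a membrane subunit, was at 69.7, 48.7 and 63.4 CPM in control and 47.1, 50.1 and 43.9 CPM in mutant libraries. The groups overlapped through control library 2 (log2 fold change -0.37 ± 0.16 (SE); edgeR adjusted p = 0.313). Atp6v0d1 had means of 110 ± 8.64 CPM (control) and 121 ± 10.5 CPM (mutant; SD, n = 3), and Atp6v1h, a subunit of the catalytic part, had a log2 fold change of 0.04.

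Counted over all 45 genes, 28 log2 fold changes were negative and 17 positive, so 37.8% were positive against 50.2% of tested genes, and 13 members changed sign in at least 1 of the 15 alternatives. At an unadjusted p under 0.05 there were 13 members (28.9%, against 16.2% of tested genes), 12 of them lower (background 8.27%) and 1 higher (background 7.92%). Values did not overlap between the groups for 15 members, 13 lower and 2 higher, a share of 33.3% against 22.7% of tested genes (11.3% lower and 11.4% higher). The median log2 fold change of the members was -0.17, against 0.00 over all tested genes. Differences were mostly small: 9 members reached 0.5 in size, where 26.5% of tested genes did, and 1 reached 1, where 10.5% did.

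**Figure D3:**
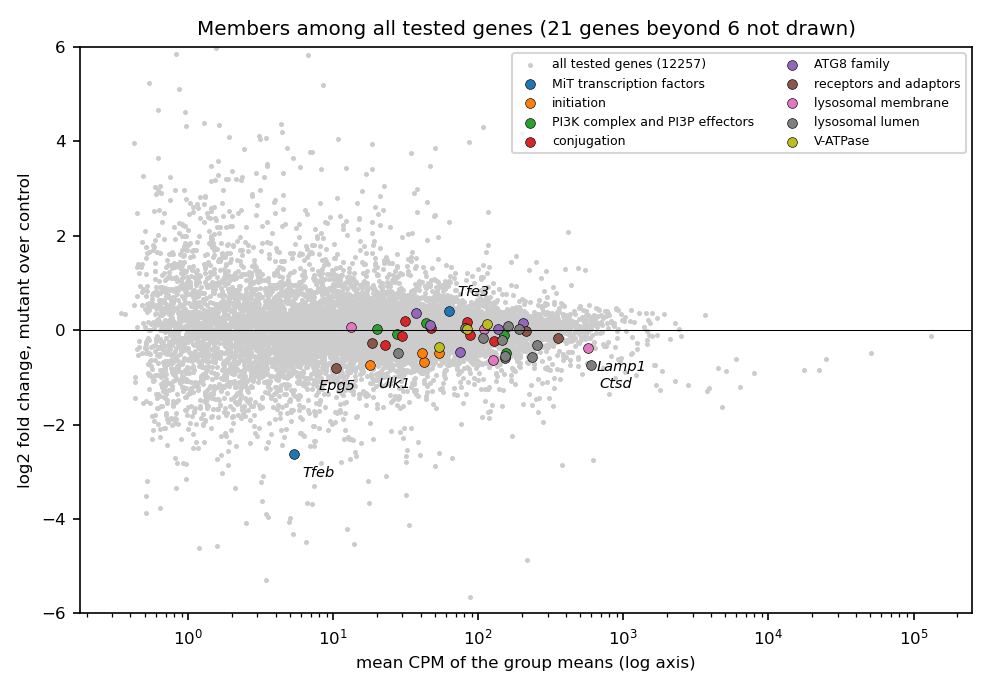
Log2 fold change, mutant over control, against mean CPM (log axis) for the tested genes in grey, without 21 beyond a log2 fold change of 6 in size, and the 45 members coloured by role. Except for Tfeb, the members lie between -0.79 and 0.41.

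The members did not separate the libraries cleanly by group. Relative to the control mean, the median of log2(CPM + 1) over the 45 genes stood at 0.09, -0.01 and -0.11 for controls 1 to 3 and at -0.24, -0.06 and -0.18 for mutants 1 to 3. Mutant library 2 therefore stood above control library 3. Control library 1 had the highest value of the 6 for 21 of the 45 genes, and mutant library 3 the lowest for 14. Crystallin genes, abundant in fibre cells, took 37.6%, 30.2% and 21.8% of counts in the control and 21.7%, 32.2% and 19.5% in the mutant libraries. Control library 1 and mutant library 2 were thus the richest in crystallin counts of their groups. The summed level of 3 lens epithelium markers was 226, 554 and 731 CPM in control and 505, 287 and 498 CPM in mutant libraries, lowest in the same 2 libraries.

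With the crystallin share as a covariate, the Tfeb log2 fold change was -2.40 (edgeR adjusted p = 0.00373), and 4 members were called (Tfeb, Ctsl, Atg13 and Ulk1, all lower), a share of 8.89% where 6.33% of tested genes were called. Whether the crystallin share itself depends on the targeted genes was not tested. Leaving out control library 1 and mutant library 2 together, an alternative chosen after the data were seen, gave 6 called members, all lower (Tfeb, Psap, Mcoln1, Epg5, Ctsd and Gaa), a share of 13.3% against 8.22% of tested genes. DESeq2 called 5 members, all lower, a share of 11.1% against 6.7% of tested genes. Limma voom called 4, all lower, a share of 8.89% against 6.59%. Tfeb was among the called genes in each of these 4 fits, and no member was called higher in any of the 15.

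**Figure D4:**
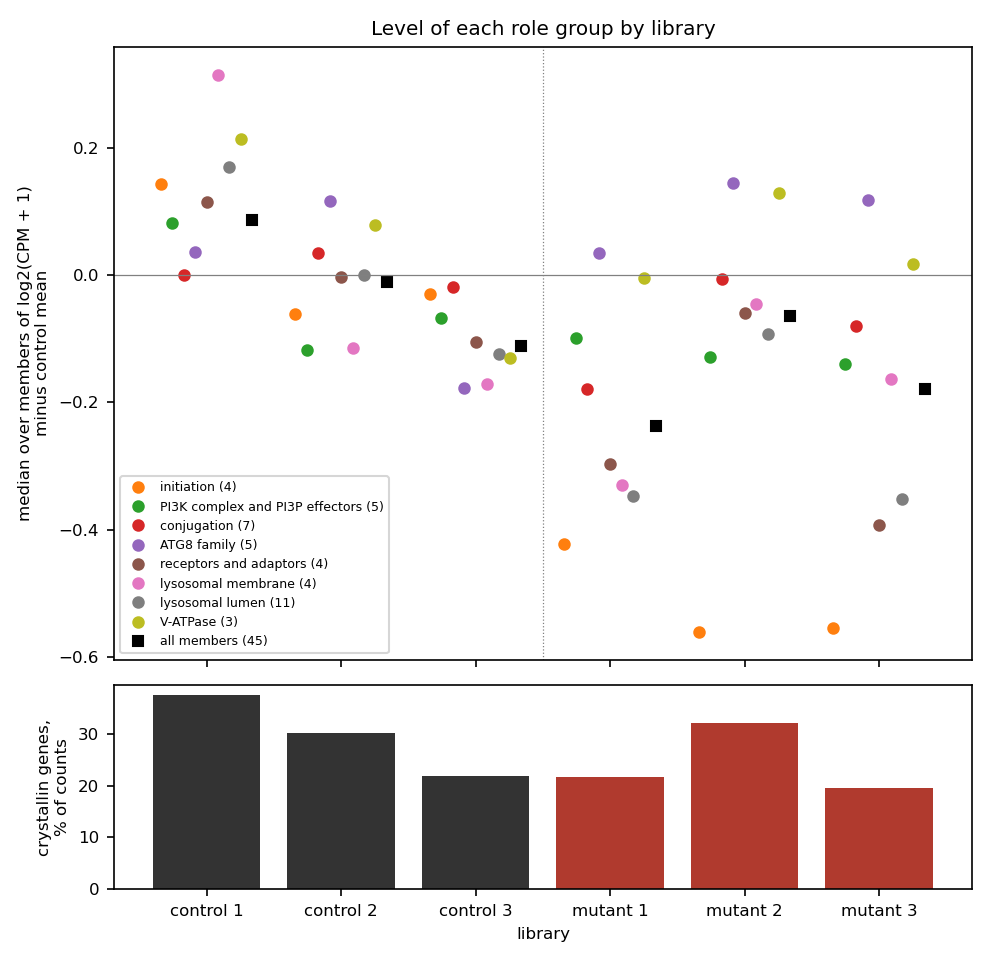
Upper panel: median over the members of each role group of log2(CPM + 1) minus the control mean, for each library, with the number of genes in parentheses and the MiT pair left out because its 2 genes differ in sign. Lower panel: share of counts from crystallin genes. The initiation genes lie between -0.56 and -0.42 in the mutant libraries, and the 3 lysosomal groups stand higher in mutant library 2 than in mutant libraries 1 and 3.

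Lysosomal genes are abundant in macrophages and pigment cells, so markers of other cells were read beside these values. The summed level of 13 macrophage markers lay between 2.49 and 14.9 CPM in control and between 4.70 and 43.6 CPM in mutant libraries, highest in mutant libraries 1 and 3, and none of the 8 tested markers was called. Of 6 markers of retinal pigment epithelium, Tyr and Rpe65 had 0 counts in all libraries, and the sum was at most 1.73 CPM. Sums for 5 surface ectoderm markers reached 7.62 CPM, with Krt12 at 0. Sums of 6 retina markers lay between 16.6 and 274 CPM, nearly all from Sfrp2, with Six6 at 0. For 5 endothelial markers the sums lay between 24.1 and 55.3 CPM, for 7 periocular mesenchyme markers between 49.2 and 168 CPM, and for 5 red blood cell markers between 52.5 and 270 CPM. The part of these cells in the members' values was not tested. The 9 lens fibre markers summed to between 52500 and 124300 CPM in control and between 39710 and 88990 CPM in mutant libraries, so the defining markers of the labelled tissue were abundant.

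Beyond the members, 5 further lists covered the rest of the pathway, to be read against the 2.22% of all tested genes that were called and the 16.2% with an unadjusted p under 0.05. Of 33 other autophagy genes, all tested, none was called (edgeR), and 1 had an unadjusted p under 0.05. Of 45 tested other lysosome genes, 1 was called and 11 had an unadjusted p under 0.05, 8 of them lower, shares of 2.22% and 24.4%. Of 15 tested other V-ATPase genes, none was called (edgeR), and 2 had an unadjusted p under 0.05, both higher.

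The lysosome gene that passed rose. Ctsc, which encodes cathepsin C, a protease that activates granule proteases of immune cells, was at 12.8, 11.2 and 10.3 CPM in control and 61.5, 51.6 and 79.7 CPM in mutant libraries. All mutant libraries were far above the controls (log2 fold change 2.49 ± 0.21 (SE); edgeR adjusted p = 0.000797). What part macrophage RNA has in the Ctsc values was not tested. Of its 20 nearest tested genes, 2 were called (Fah and Sytl2). Among 14 regulators of mTORC1 and of MiT factors, 3 were called (21.4%): the kinase gene Mtor and its upstream inhibitor gene Tsc2 fell (log2 fold changes -1.01 and -1.57) and Rragd, a GTPase gene that recruits mTORC1 to lysosomes, rose (1.65), and these 3 were known from earlier results of these data. Of 5 genes tied to organelle clearance in the lens, 4 were tested and none was called (edgeR; 0 at an unadjusted p under 0.05): Hsf4, Pla2g16, Bnip3 and Fundc1, of which Bnip3 and Fundc1 are also among the 33.

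Library totals were between 13364742 and 17301168 counts, so that 1 count stood for at most 0.0748 CPM before TMM scaling. Intervals cover the spread between libraries only as the model estimates it. Mutant library 1 differs from the other 5 in sex, with 711 counts of Xist where the others had 0 to 3. Of the genes targeted, Etv1 and Etv5 had log2 fold changes of -1.11 and -0.93 and Etv4 one of 0.64, and counts per gene can include exons that a deletion leaves in place. The kit does not mark strand. In the GENCODE M21 annotation, 8 of the 45 members share over 10% of their exon bases with another gene, among them Atg9a (41.8%), Ctsd (31.5%) and Ctsl (28.2%), and their reads cannot be told apart from those of such partners.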

How the data were processed

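RNA of 6 libraries was amplified with a SMART-seq kit and tagmented, per the labels' protocols. Build mm9 and the tools TopHat, Cufflinks, DESeq and bcl2fastq (1.8.4) appear in the submitters' processing notes, with no role; which program counted reads, and on which annotation, is not given in the sources used here. Raw counts for gene symbols were deposited by the authors. The authors' deposited table of their own comparison gives a mean normalized signal, log2 fold changes with standard errors, a test score and p-values; positive values stand for higher in mutant.

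Here, edgeR 4.0.16 in R 4.3.3 fitted all genes kept by filterByExpr (minimum count 10, total 15; 12257 genes) after TMM scaling, with the robust quasi-likelihood F test, no covariate, and Benjamini-Hochberg adjustment over all of them. DESeq2 1.42.0 and limma 3.58.1 (voom) were alternatives, besides other scalings and filters, a replicate block, the crystallin share as a covariate and leaving out libraries. SEs come from the F statistic. Levels per kilobase use the union of exons in GENCODE M21, which need not be the annotation the authors used. The procedure was tested on simulated counts of this comparison (12066 genes tested): 46% of 87 genes changed by a log2 of 1 and 80.6% of 108 changed by 2 were recovered, with 11 false calls; without any changed gene there were 2.

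Within groups, libraries differed beyond sampling noise (chi-square over degrees of freedom 29.7 to 146). The members and gene lists were chosen with earlier results of these data known. Genes are given in full if they passed, were among the 10 members of lowest p, or had the lowest p of their role group; Tfe3 and Ulk2 were added after their values were seen. The most abundant member of each group and the ATG8 family are given by means and the rest by fold changes. Other pathway genes are given if called. Those of the 5 organelle clearance genes that were tested, Mitf, Rb1cc1, Atg101 and the targeted genes are named besides. Rb1cc1 and Atg101 were added after their values were seen.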

Additional observations from a re-analysis of the deposited data

How the results depend on the processing

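Of the 45 log2 fold changes, 32 kept their sign in all 15 alternatives, and 13 changed it in at least 1 (Atg5, Atg7, Atg14, Becn1, Map1lc3b, Sqstm1, Wipi1, Lamp2, Ctsa, Ctsb, Hexa, Npc1 and Atp6v1h). The number of members called lower, 1 in the fit reported, was 5 with DESeq2, 4 with limma voom, 4 with the crystallin share as covariate and 6 without control library 1 and mutant library 2 (chosen after seeing the data), and 0 to 2 when single libraries were left out. It was 0 without control library 2, mutant library 1 or mutant library 3, where Tfeb was lost, and 2 without mutant library 2, where Psap passed too. Over all tested genes, 140 were called higher and 132 lower, against 401 and 420 with DESeq2, 392 and 416 with limma voom, 350 and 426 with the crystallin covariate, 509 and 522 without control library 1 and mutant library 2, and between 54 and 213 higher and 36 and 266 lower when single libraries were left out. The cause was not tested. With the replicate number as a block, 68 were called higher and 54 lower, and Tfeb was still called (edgeR adjusted p = 0.0370). Deviations of same-numbered libraries from their group means had correlations of -0.36, -0.203 and 0.261, and 1 of 6 libraries correlated best with its own number. With 3 libraries a group, these values cannot show whether same-numbered libraries share a batch. Other scalings and filters left the counts of called members at 1. With 3 libraries a group, members with log2 fold changes as large as -0.79 (Epg5) were not called, and in simulated data 46% of changes of 1 were recovered, so a missed call does not show that a member did not change.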
